A study of Homo sapiens with 64 samples.

Results

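The TSC22 domain family was followed in 64 Affymetrix arrays of BEAS-2B cells, a line made from human bronchial epithelium by immortalisation. Its members were chosen by gene symbol in the platform annotation, as the 16 probe sets of TSC22D1, TSC22D2, TSC22D3 and TSC22D4 among 49395 probe sets in all. TSC22D1 had 3 probe sets, TSC22D2 6, TSC22D3 3 and TSC22D4 4, and the brightest probe set of each gene on average over all arrays stands for the gene below. These 4 genes were tested among 18132 genes. Cells grown in serum were kept without serum overnight and then left untreated, given budesonide at 100 nM, formoterol at 10 nM, or both. Budesonide is an inhaled glucocorticoid that acts through the glucocorticoid receptor, and formoterol is a long-acting beta2 agonist that raises cyclic AMP. Total RNA was taken at 1, 2, 6 or 18 h, and each of the 16 groups had 4 arrays. The untreated cells at each time were the controls of that time, and the labels do not say whether they received a vehicle.

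Proteins of this family share a leucine zipper and an adjoining TSC box, through which they pair with themselves and with each other. TSC22D3, better known as GILZ for glucocorticoid-induced leucine zipper, is a classic target of the glucocorticoid receptor. It can bind NF-kappaB and AP-1 proteins and is held to carry part of the anti-inflammatory action of glucocorticoids. TSC22D1 was found as a transcript induced by transforming growth factor beta. The long forms of TSC22D1, TSC22D2 and TSC22D4 are known to associate with NRBP1 and with WNK kinases, which sense cell volume.

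Levels are log2 values from robust multi-array averaging (RMA), so a difference of 1 is a 2-fold change. A gene was called at a Benjamini-Hochberg adjusted p under 0.05 from limma, fitted over all 64 arrays. The arrays had medians of 4.87 to 4.95 and a median of 4.90 over all values, with a lower quartile of 3.02. Arrays of a group correlated at 0.989 to 0.997 and none were identical. Of 6 epithelial markers, KRT8 and KRT18 stood above that median in all 16 groups and KRT7 in 15, while KRT19 and CDH1 stood below it and EPCAM below the lower quartile throughout. Leukocyte markers PTPRC, CD14 and LYZ stayed below the lower quartile in all groups, and CD3E below the median, while CD68 lay between 5.54 and 5.88. No endothelial marker of 4 reached the median. Of 6 fibroblast and smooth muscle markers, COL1A1 and PDGFRB were above the median in all groups, ACTA2 in 2 groups, and PDGFRA and DCN stayed below the lower quartile. Microarrays of a cell mixture cannot tell fewer expressing cells from less RNA per cell.

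The 4 genes moved in different ways. TSC22D3 rose with budesonide at every time and did not pass the test with formoterol. TSC22D1 rose with formoterol at 1 and 2 h and fell with budesonide at 6 and 18 h. TSC22D2 rose with budesonide at 1 h and fell with it at 6 and 18 h, and TSC22D4 did not pass the test in any of the 12 comparisons of a treatment with untreated cells. Of those 12 comparisons TSC22D3 was called in 8, all higher, TSC22D1 in 7, with 4 higher and 3 lower, and TSC22D2 in 5, with 1 higher and 4 lower.

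These calls stand against a background that grew with time. With budesonide the share of all genes called higher was 0.667% at 1 h, 1.69% at 2 h, 6.12% at 6 h and 8.56% at 18 h. The share called lower was 0.331%, 2.26%, 8.12% and 9.78% at those times. With formoterol 1.02% of genes were called higher at 1 h, 2.31% at 2 h, 2.76% at 6 h and 0.469% at 18 h, and the shares called lower were 0.32%, 2.29%, 2.06% and 0.64%. With both drugs 1.63%, 3.84%, 8.61% and 10.3% were called higher and 1.13%, 5.65%, 9.95% and 10.7% lower. A fall at 6 or 18 h with budesonide was thus shared with many genes, and a rise at 1 h with few.

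The effect of a treatment was also compared between times. From 1 to 2 h the budesonide effect rose for 0.215% of genes, from 1 to 6 h for 3.22% and from 1 to 18 h for 5.04%, and it fell for 3.44% to 6 h and 4.97% to 18 h. The formoterol effect fell for 1.22% of genes from 1 to 6 h and 0.877% from 1 to 18 h. The effect of both drugs rose for 6.66% and fell for 5.77% from 1 to 6 h, fell for 7.18% from 1 to 18 h and for 5.15% from 6 to 18 h. Of these effects, that of budesonide on TSC22D3 was larger at 2, 6 and 18 h than at 1 h, and those on TSC22D1 and TSC22D2 were lower at 6 and 18 h than at 1 h.

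**Figure D1:**
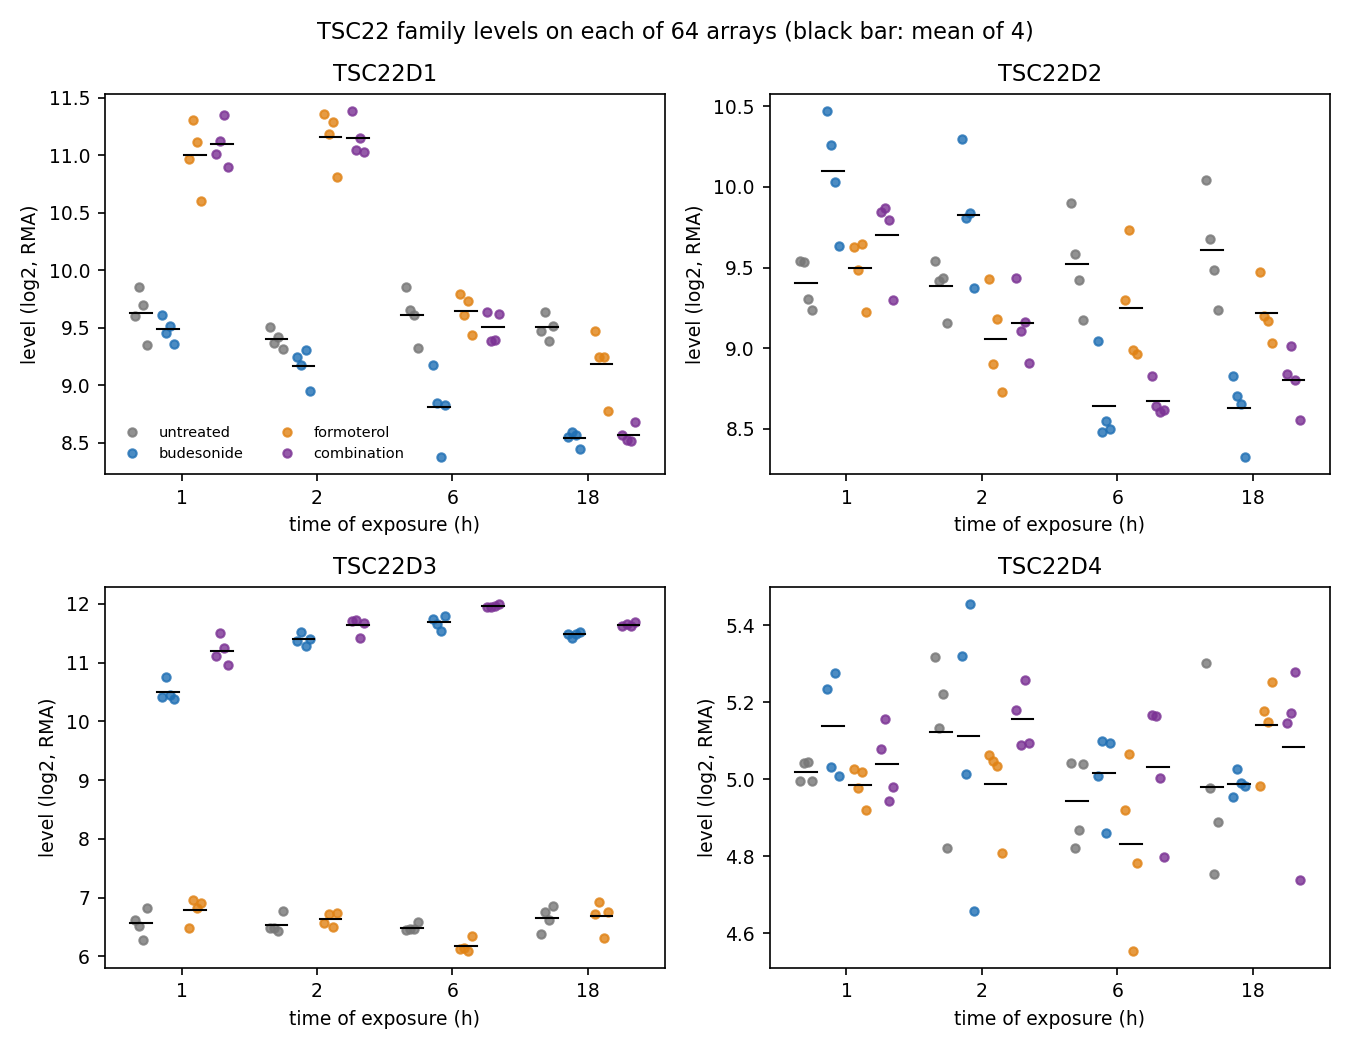
Levels of the 4 genes (log2, RMA) on each of 64 arrays by time of exposure in h (times drawn at equal steps), with 4 arrays per group coloured by treatment and the group mean as a black bar; each panel has its own scale. All 32 arrays with budesonide lie at or above 10.39 for TSC22D3 and all 32 without it at or below 6.96, while TSC22D1 is highest with formoterol or both drugs at 1 and 2 h.

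TSC22D3 (Entrez Gene 1831) separated the arrays by budesonide alone. The 16 untreated arrays lay between 6.28 and 6.86 with a median of 6.50, and the 16 formoterol arrays between 6.10 and 6.96 with a median of 6.64. The 16 budesonide arrays lay between 10.39 and 11.80 with a median of 11.46, and the 16 with both drugs between 10.96 and 11.99 with a median of 11.67. The 32 arrays with budesonide and the 32 without it did not overlap at any time. Untreated levels did not pass the test over time, at most 0.09 from the 1 h level.

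The promoter windows of TSC22D3 are shown because its rise is the largest in the family. RefSeq gives 4 start sites for TSC22D3 on the minus strand of chromosome X in GRCh38.p14, and the 250 bases before each were searched on both strands. The letters searched were TGACG, the half-site of CREB, TGACGTCA, its full site, which contains that half-site, GTAAACA for forkhead factors such as FOXO, ACANNNTGT for the core of a glucocorticoid response element, and TATAAA, the letters of a TATA box. Of 35116 RefSeq windows of this length, 21.2% held TGACG, 1.65% TGACGTCA, 2.98% GTAAACA, 4.61% ACANNNTGT and 10.7% TATAAA. In the pair of TSC22D3 windows that held any match, capitals mark the matches, on either strand.
TSC22D3 chrX:107717063-107717312, minus strand: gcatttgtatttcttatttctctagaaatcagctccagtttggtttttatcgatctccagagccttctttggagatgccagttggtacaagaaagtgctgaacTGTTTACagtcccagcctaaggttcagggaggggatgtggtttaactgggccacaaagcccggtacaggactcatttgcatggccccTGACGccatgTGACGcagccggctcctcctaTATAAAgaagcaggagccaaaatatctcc
TSC22D3 chrX:107775788-107776037, minus strand: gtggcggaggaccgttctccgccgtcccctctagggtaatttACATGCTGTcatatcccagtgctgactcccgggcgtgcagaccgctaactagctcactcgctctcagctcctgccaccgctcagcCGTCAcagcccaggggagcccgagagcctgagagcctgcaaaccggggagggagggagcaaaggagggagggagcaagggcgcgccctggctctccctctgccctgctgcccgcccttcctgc
The window at 107717063 has its TATA letters starting 29 bases before the start site at 107717062, CREB half-sites at both 60 and 50 bases before it, and the forkhead letters on the other strand 147 bases before it. The window at 107775788 holds the response element core 208 bases before its start site and 1 half-site on the other strand. The arrays do not tell which start site was used, and a match of letters is a description, not a binding site.

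Budesonide raised TSC22D3 15.3-fold within 1 h. At 1 h the 4 budesonide arrays read 10.41, 10.75, 10.44 and 10.39 against 6.62, 6.52, 6.28 and 6.83 in untreated cells, a difference of 3.94 ± 0.11 (SE; adjusted p = 1.95e-37, limma). It was the largest rise of all 18132 genes at 1 h and again at 2 h, where the 4 arrays read 11.38, 11.53, 11.29 and 11.40 and the difference was 4.86, or 28.9-fold. At 6 h the arrays read 11.74, 11.66, 11.55 and 11.80 and the difference reached 5.20, or 36.6-fold, the third of all genes. At 18 h they read 11.49, 11.42, 11.50 and 11.53 with a difference of 4.83, or 28.5-fold. The SE of 0.11 comes from the spread over all groups and is the same for each comparison of a pair of groups of this gene. The adjusted p was 3.77e-44 at 6 h and 1.36e-42 at 18 h (limma), and all 4 treated arrays lay above all 4 untreated arrays at each time. Such a separation was shown by 1.58%, 2.93%, 7.37% and 9.93% of genes at 1, 2, 6 and 18 h.

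All 3 TSC22D3 probe sets were called higher with budesonide and with both drugs at each time. Their sizes differed, from 2.69 to 4.05 at 1 h and from 3.85 to 5.47 at 6 h with budesonide. The smallest rise was that of the probe set built on CR533450.1 at each time, and the largest that of the one built on AK300535.1. With both drugs they rose by 3.41 to 4.70 at 1 h and by 4.08 to 5.60 at 6 h. Across all probe sets 0.423%, 1.26%, 4.28% and 6.14% were called higher with budesonide at 1, 2, 6 and 18 h. With both drugs the shares were 1.17%, 2.9%, 6.66% and 7.5%.

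TSC22D3 was not called with formoterol given alone. The differences were 0.23 at 1 h, 0.09 at 2 h, -0.31 at 6 h and 0.03 at 18 h, with adjusted p of 0.651, 0.878, 0.083 and 0.936 (limma). The 95% interval at 2 h ran from -0.12 to 0.31, so a rise of the size seen with budesonide lies outside it. At 6 h the formoterol arrays read 6.12, 6.15, 6.10 and 6.35 and the untreated arrays 6.44, 6.46, 6.47 and 6.59. All 4 were lower than all 4 untreated arrays, a separation that 3.8% of all genes showed in that direction. The third probe set of TSC22D3 gave 0.24 there, the opposite sign. Without replicate 4 of the formoterol arrays the difference at 6 h was -0.37 with an adjusted p of 0.0494 (limma), which passes.

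In the fit reported, TSC22D3 was called higher with both drugs than with budesonide at 1 h alone. The combination arrays at 1 h read 11.11, 11.50, 11.25 and 10.96, all above the 4 budesonide arrays, and the difference between the treatments was 0.71 or 1.63-fold (adjusted p = 2.35e-06, limma). In this comparison 1.2% of genes were called higher, and 2.59% had all 4 arrays above the other 4. At 2, 6 and 18 h the difference was 0.24, 0.28 and 0.16, and the adjusted p was 0.34, 0.125 and 0.781. At 6 h the arrays with both drugs read 11.94, 11.95, 11.97 and 11.99 and again lay above all 4 budesonide arrays, as 5.65% of genes did, and at 18 h they did so too, as 3.14% of genes did. At 6 h the replicate numbers paired these arrays, the combination was higher by 0.20 to 0.42 within each of the 4 numbers, and the adjusted p with the replicate number as a block was 0.0397 (limma). The numbers paired the arrays at 2 and 18 h too. There the combination was higher within all 4 numbers, by 0.135 to 0.333 and 0.125 to 0.239. In the fit over all probe sets, the 3 of TSC22D3 stood 0.66 to 0.72 above budesonide at 1 h, and 2 were called. Of all probe sets 0.812% were called higher there. The differences of the 3 ran from -0.05 to 0.24 at 2 h, 0.14 to 0.28 at 6 h and 0.16 to 0.18 at 18 h, with none called.

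Against untreated cells the combination raised TSC22D3 by 4.64 at 1 h, 5.09 at 2 h, 5.47 at 6 h and 5.00 at 18 h, or 25, 34.1, 44.4 and 31.9-fold. The combination with budesonide and the combination with untreated cells share arrays, and so do the single drugs with their controls. On the log2 scale the combination exceeded the sum of both single differences by 0.47 at 1 h, 0.14 at 2 h, 0.59 at 6 h and 0.13 at 18 h, each ± 0.15 (SE). Only the value at 6 h passed the test (adjusted p = 0.0374, limma), beside 0.447% of genes with a positive and 0.276% with a negative interaction at that time, and the value at 1 h had an adjusted p of 0.623. That value at 6 h is made of the 0.28 by which the combination stood above budesonide and the -0.31 of formoterol alone. The call at 6 h was lost with 12 of the 16 arrays left out one at a time, all but replicate 1 of the untreated, replicates 1 and 4 of the budesonide and replicate 4 of the formoterol arrays, and with each replicate number left out. Over those 20 fits the value stayed between 0.52 and 0.65 with an adjusted p of 0.0235 to 0.301 (limma), and it was 0.33 with an adjusted p of 1 with the mean of the 3 probe sets.

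**Figure D2:**
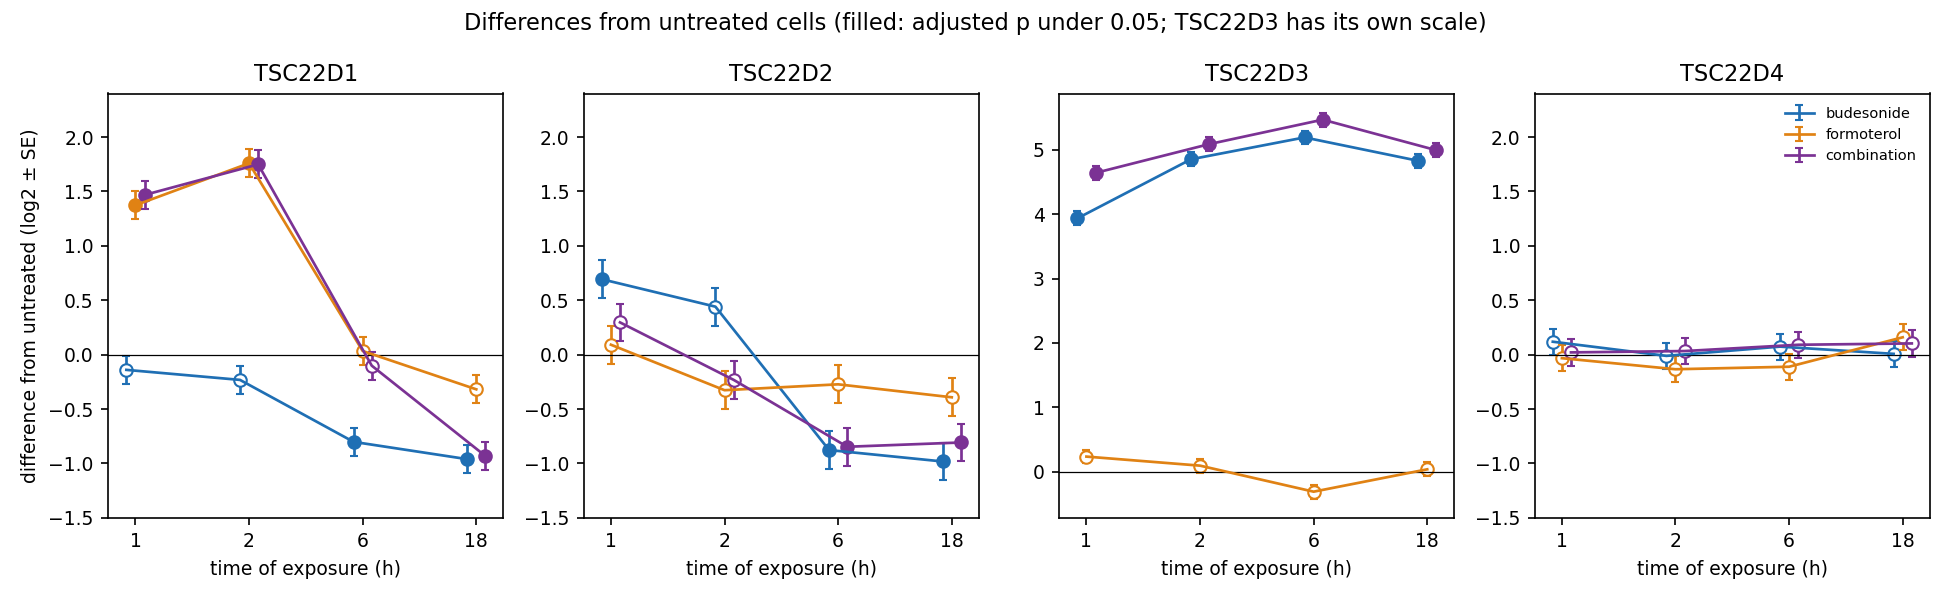
Difference from untreated cells (log2, with the SE from limma) by time of exposure in h (times drawn at equal steps) for each gene, one line per treatment; filled points passed an adjusted p of 0.05, and TSC22D3 has its own scale. Budesonide and the combination run close together for TSC22D3, formoterol and the combination for TSC22D1 at 1 and 2 h, and no point of TSC22D4 is filled.

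Ordered by mean level, the 16 groups of TSC22D3 began with the combination at 6 h, at 11.96 ± 0.02 (SD, n = 4), which did not overlap budesonide at 6 h, next at 11.69 ± 0.11 (SD, n = 4). Neighbours from there down to the combination at 1 h, at 11.20 ± 0.23 (SD, n = 4), overlapped in their arrays. Budesonide at 1 h followed at 10.50 ± 0.17 (SD, n = 4), apart from both its neighbours. The 8 groups without budesonide came last, and formoterol at 6 h, at 6.18 ± 0.11 (SD, n = 4), was the lowest and did not overlap untreated cells at 6 h, at 6.49 ± 0.07 (SD, n = 4).

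The time course of TSC22D3 can be set beside 10 other known targets of the glucocorticoid receptor, a list chosen with earlier results of these data known. With budesonide 8 of the 10 were called higher at 1 h, 9 at 2 h and all 10 at 6 and 18 h. Their median differences were 2.36, 2.42, 2.00 and 1.69, while the median over all genes was between -0.02 and 0.03. Of all genes 0.667%, 1.69%, 6.12% and 8.56% were called higher with budesonide at these times. PER1, a clock repressor, rose by 2.73 at 1 h and 3.61 at 2 h and by 2.30 at 18 h. DUSP1, a phosphatase that switches off MAP kinases, rose by 2.37 at 1 h and 1.76 at 18 h. FKBP5, a chaperone partner of the receptor, had a difference of 0.26 at 1 h (adjusted p = 0.72, limma) and rose by 3.05 at 6 h. ZBTB16, a zinc finger repressor, had -0.10 at 1 h (adjusted p = 1) and rose by 3.53 at 18 h. TSC22D3 was thus early, like PER1 and DUSP1, and its difference at 18 h, 4.83, was close to the 4.86 at 2 h. With formoterol 5 of the 10 were called higher at 1 h, beside 1.02% of all genes, and TSC22D3 was not. Among the 5 were DUSP1, by 2.43, and SGK1, a kinase of ion transport, by 3.60.

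The factors held to drive TSC22D3 moved differently from each other. NR3C1, the glucocorticoid receptor itself, was not called at 1 h and fell with budesonide by 0.48 at 2 h, 1.05 at 6 h and 0.94 at 18 h, while TSC22D3 stayed high. Its level with formoterol was higher at 2 h, by 0.48, and at 6 h, by 0.32. FOXO1, a forkhead factor, rose with budesonide by 2.00 at 2 h, 2.90 at 6 h and 2.92 at 18 h, and with both drugs already at 1 h, by 0.79. FOXO3 rose with budesonide by 0.95, 1.26 and 0.71 at 2, 6 and 18 h. NR3C2, the mineralocorticoid receptor, fell with budesonide by 0.98 at 6 h and 0.31 at 18 h, and PGR and CREB1 each fell once, with both drugs, by 0.50 at 6 h and 0.34 at 2 h. FOXO4 was not called in any comparison with untreated cells. Of these 7 factors, 2 were called higher and 2 lower with budesonide at 6 h, with a median difference of -0.15 beside 0.03 over all genes. The shares of all genes called were 6.12% higher and 8.12% lower there. Whether any of these changes had a part in that of TSC22D3 was not tested.

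Of 9 listed proteins reported to bind GILZ, 6 were analysed here. JUN, an AP-1 subunit, fell in all 12 comparisons with untreated cells. Its budesonide differences were -1.62, -2.44, -2.81 and -2.41 at 1, 2, 6 and 18 h, and its formoterol differences -1.10, -1.49, -0.56 and -0.49. NFKB1, a precursor of NF-kappaB, fell with both drugs by 0.29 at 6 h and 0.26 at 18 h, and HRAS, a small GTPase, fell with budesonide by 0.25 at 18 h. RELA, NFKB2 and FOS were not called in these comparisons. With budesonide at 6 h 0 of the 6 were called higher and 1 lower, with a median of 0.03, equal to that over all genes. Among all genes 6.12% were called higher and 8.12% lower there.

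TSC22D1 (Entrez Gene 8848) answered formoterol early. At 1 h its formoterol arrays read 10.97, 11.31, 11.12 and 10.60, all above the untreated arrays at 9.61, 9.86, 9.70 and 9.35. Of all genes 2.24% had all 4 arrays above the other 4 there. The difference was 1.37 ± 0.13 (SE), or 2.59-fold (adjusted p = 1.59e-12, limma). At 2 h they read 11.36, 11.19, 11.29 and 10.81 against 9.51, 9.37, 9.42 and 9.31, a difference of 1.76 or 3.38-fold (adjusted p = 7.57e-17, limma). TSC22D1 ranked 51 among all genes by rise at 1 h and 44 at 2 h. By 6 h the rise was gone, with a difference of 0.03 and a 95% interval from -0.23 to 0.29, and at 18 h it was -0.32 (adjusted p = 0.306, limma).

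TSC22D1 was not called with budesonide at 1 and 2 h and fell with it later. The differences were -0.14 at 1 h and -0.23 at 2 h, with adjusted p of 1 and 0.543 (limma). All 4 budesonide arrays at 2 h lay below all 4 untreated arrays, as 3.82% of genes did. At 6 h the arrays read 9.17, 8.85, 8.38 and 8.83 against 9.85, 9.65, 9.61 and 9.32, and TSC22D1 fell by 0.80 (adjusted p = 1.91e-06, limma). At 18 h the arrays read 8.56, 8.59, 8.57 and 8.45 against 9.47, 9.64, 9.38 and 9.52, and it fell by 0.96, a 1.95-fold lower level (adjusted p = 1.94e-08, limma). The arrays did not overlap at either time, a separation that 7.89% of genes showed in that direction at 6 h and 10.5% at 18 h.

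With both drugs TSC22D1 stood near formoterol alone first and near budesonide alone last. It rose by 1.47 at 1 h and 1.75 at 2 h against untreated cells, and against formoterol the differences were 0.09 and -0.01, with 95% intervals from -0.17 to 0.35 and from -0.27 to 0.25. Neither passed the test, and 0.827% and 2.29% of genes were called higher there. At 6 h the combination was 0.70 above budesonide (adjusted p = 8.06e-05, limma; 3.91% of genes called higher) and -0.13 from formoterol, and it stood at -0.10 from untreated cells (adjusted p = 0.729). At 18 h it fell by 0.93 from untreated cells, by 0.61 from formoterol (adjusted p = 0.000214, limma; 8.66% of genes called lower), and was 0.03 above budesonide, with a 95% interval from -0.23 to 0.29. The interaction of TSC22D1 was 0.23, 0.22, 0.67 and 0.35 at 1, 2, 6 and 18 h, and none passed, with an adjusted p of 0.0672 at 6 h (limma). The interaction at 6 h passed without replicate 4 of the untreated arrays, at 0.76 with an adjusted p of 0.0275, without replicate 1 of the budesonide arrays, at 0.79 with 0.0144, and without the arrays numbered 4, at 0.67 with 0.0403 (limma).

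The second TSC22D1 probe set, built on AA781408, moved like the first, with 1.35 at 1 h and 2.12 at 2 h with formoterol and -0.88 at 6 h and -0.77 at 18 h with budesonide. The third, built on BE552049, had a mean level of 3.36, near the lower quartile of all values, and was not called in any comparison with untreated cells. In the group order of TSC22D1 the 4 groups with formoterol at 1 and 2 h came first, between 11.00 ± 0.30 (SD, n = 4) and 11.16 ± 0.24 (SD, n = 4), and did not differ beyond their arrays. They did not overlap the next group, formoterol at 6 h at 9.64 ± 0.15 (SD, n = 4), and every other pair of neighbours overlapped. The last was budesonide at 18 h at 8.54 ± 0.06 (SD, n = 4).

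RefSeq gives 5 start sites for TSC22D1 on the minus strand of chromosome 13 and 1 for TSC22D4 on that of chromosome 7. None of these 6 windows held the CREB, forkhead or response element letters, which says only that these letters are not in these windows. The only letters found in them were TATAAA, in 2 TSC22D1 windows, which are shown beside those of TSC22D3 with the matches in capitals. They lie 28 bases before the start site at 44576330, and 223 and 113 bases before the start site at 44437248.
TSC22D1 chr13:44576331-44576580, minus strand: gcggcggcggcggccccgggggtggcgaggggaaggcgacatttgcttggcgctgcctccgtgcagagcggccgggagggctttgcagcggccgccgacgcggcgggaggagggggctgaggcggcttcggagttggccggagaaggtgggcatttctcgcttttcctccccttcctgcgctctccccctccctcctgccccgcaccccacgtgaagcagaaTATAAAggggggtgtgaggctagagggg
TSC22D1 chr13:44437249-44437498, minus strand: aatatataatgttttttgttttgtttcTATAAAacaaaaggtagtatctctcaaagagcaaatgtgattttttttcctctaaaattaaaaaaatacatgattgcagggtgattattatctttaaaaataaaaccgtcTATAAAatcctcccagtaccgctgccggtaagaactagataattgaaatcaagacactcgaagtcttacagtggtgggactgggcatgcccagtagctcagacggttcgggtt

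Of 5 genes known to be induced through cyclic AMP, 4 were called higher with formoterol at 1 h, 5 at 2 h, 4 at 6 h and 2 at 18 h. Their median differences were 3.40, 3.23, 1.00 and 0.42, with medians over all genes between -0.02 and 0.02. Of all genes 1.02%, 2.31%, 2.76% and 0.469% were called higher with formoterol at these times. This list too was chosen with earlier results of these data known. NR4A1, an orphan nuclear receptor, rose by 3.40 at 1 h and 3.12 at 2 h and had -0.24 at 6 h (adjusted p = 0.877, limma). PDE4D, which breaks down cyclic AMP, was still higher by 2.00 at 6 h and 0.89 at 18 h. Of the 5, NR4A1 was the one besides TSC22D1 that did not pass the test at 6 h. With budesonide 0 of the 5 were called in either direction at any time by limma, and the listed SIK1 was not analysed here.

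**Figure D3:**
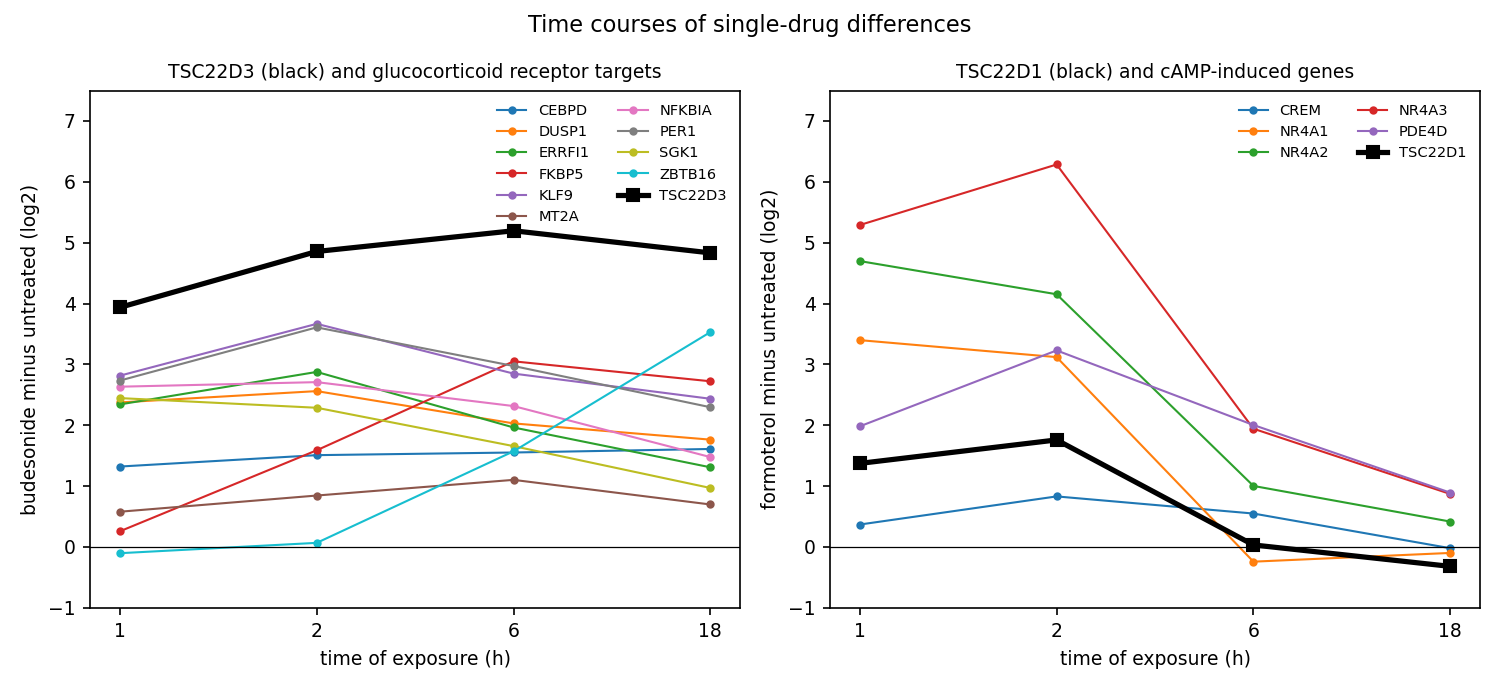
Single-drug differences from untreated cells (log2) by time of exposure in h (times drawn at equal steps): left, TSC22D3 in black with 10 listed glucocorticoid receptor targets under budesonide; right, TSC22D1 in black with 5 listed cyclic AMP-induced genes under formoterol. TSC22D3 is at 3.94 by 1 h and 4.83 at 18 h, and TSC22D1 falls from 1.76 at 2 h to 0.03 at 6 h.

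TSC22D2 (Entrez Gene 9819) changed direction with budesonide. At 1 h its budesonide arrays read 10.47, 10.26, 10.03 and 9.63, all above the untreated arrays at 9.54, 9.53, 9.31 and 9.24, as 1.58% of genes did. TSC22D2 rose by 0.69 ± 0.17 (SE), or 1.62-fold (adjusted p = 0.022, limma). At 6 h they read 9.05, 8.48, 8.55 and 8.50 against 9.90, 9.58, 9.42 and 9.18, and it fell by 0.88 (adjusted p = 8.71e-05, limma). At 18 h they read 8.83, 8.71, 8.65 and 8.33 against 10.04, 9.68, 9.48 and 9.24, and it fell by 0.98, a 1.98-fold lower level (adjusted p = 9.04e-06, limma). All 4 treated arrays were lower than all 4 untreated arrays at 6 and 18 h, as 7.89% and 10.5% of genes were.

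The call of the TSC22D2 rise at 1 h was lost in some fits with fewer arrays, while the value stayed between 0.57 and 0.85 with any 1 array or replicate number left out. It no longer passed without replicate 3 or 4 of the untreated arrays, at 0.66 and 0.64 with adjusted p of 0.0934 and 0.132, or without replicate 1 or 2 of the budesonide arrays, at 0.57 and 0.64 with adjusted p of 0.224 and 0.131 (limma). It also failed without the arrays numbered 1, 2 or 3, at 0.61, 0.68 and 0.68 with adjusted p of 0.086, 0.325 and 0.366. The falls at 6 and 18 h passed in every such fit. Levels of TSC22D2 moved with the replicate number: the array numbered 1 was the highest in 12 of 16 groups and the one numbered 4 the lowest in 14. For TSC22D1 these counts were 9 and 12, and for TSC22D4 6 and 7. TSC22D3 ran otherwise, highest on number 4 in 10 groups and lowest on number 3 in 8. The array numbered 1 also had the highest actin 3′ to 5′ probe signal difference, a sign of RNA quality, in every group at 1, 6 and 18 h. Mean values of that measure were 1.02 with budesonide and 0.96 in untreated cells at 1 h, and its part in the result was not tested. Within the numbers 1 to 4 the budesonide difference of TSC22D2 at 1 h was 0.93, 0.72, 0.72 and 0.40.

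At 2 h the budesonide arrays of TSC22D2 read 10.30, 9.81, 9.84 and 9.37 against 9.54, 9.42, 9.44 and 9.16, which overlap. The difference of 0.44 did not pass the test (adjusted p = 0.207, limma). Replicate numbers paired the arrays at 2 h, the difference was above 0 in each of the 4 numbers, from 0.21 to 0.76, and with the replicate number as a block the adjusted p was 0.0016. Formoterol at 2 h gave -0.33 (adjusted p = 0.456), below 0 in each of the 4 numbers, and 0.0307 with the block. At 1, 6 and 18 h formoterol gave 0.09, -0.27 and -0.39, and none passed, with adjusted p of 1, 0.581 and 0.359 (limma).

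With both drugs TSC22D2 was not called at 1 h, at 0.30 (adjusted p = 0.668), or at 2 h, at -0.23 (adjusted p = 0.583). At 2 h the combination stood 0.67 below budesonide (adjusted p = 0.00892, limma), beside 1.54% of genes called lower, and lower in each of the 4 numbers. That call was lost without replicate 1 of the budesonide arrays, at -0.52 with an adjusted p of 0.122, and without replicate 4 of the combination arrays, at -0.59 with 0.0603. It was lost too without the arrays numbered 2 or 3, at -0.66 and -0.67 with adjusted p of 0.116 and 0.121. Against untreated cells TSC22D2 fell with both drugs by 0.85 at 6 h (adjusted p = 0.000111) and 0.81 at 18 h (adjusted p = 0.000211). The combination was 0.03 above budesonide at 6 h and 0.17 above it at 18 h, and neither passed. Its interactions ran from -0.49 at 1 h to 0.57 at 18 h, with none called.

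**Figure D4:**
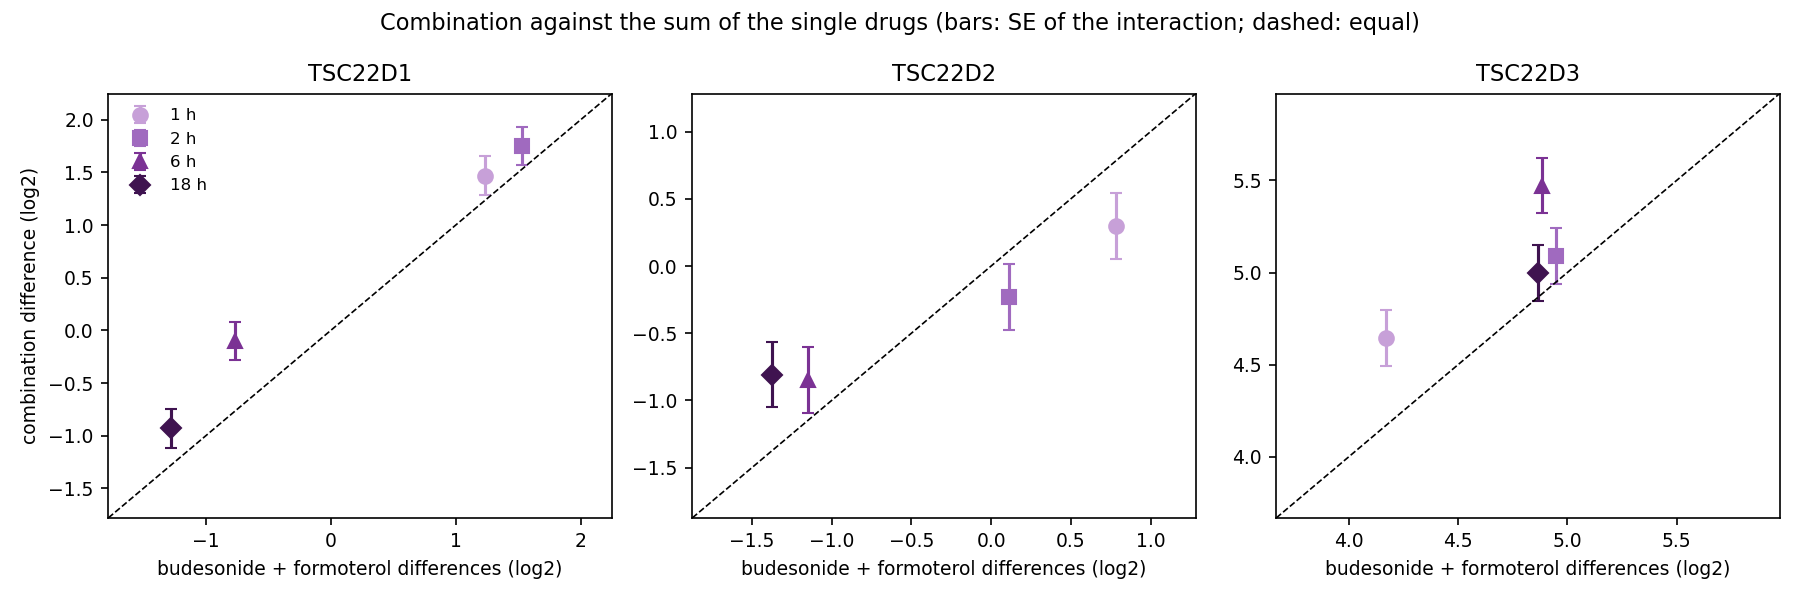
Difference of the combination from untreated cells against the sum of the budesonide and formoterol differences (log2) for TSC22D1, TSC22D2 and TSC22D3, one point per time with the SE of the interaction, and a dashed line where both are equal. TSC22D3 at 6 h, 0.59 above the line, is the one point whose interaction passed the test, a call that 16 of 20 fits without 1 array or 1 replicate number did not make.

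The 6 TSC22D2 probe sets ran alike with budesonide at 1 h, all higher by 0.25 to 0.79, and 3 of them were called, beside 0.423% of all probe sets. At 6 h 3 were called lower and at 18 h 4, where 5.44% and 7% of all probe sets were, and with both drugs 5 and 4, where 6.9% and 7.8% were. The sixth probe set, with a mean level of 2.02, below the lower quartile of all values, was not called in any comparison with untreated cells. In the group order of TSC22D2, led by budesonide at 1 h at 10.10 ± 0.36 (SD, n = 4) and ended by budesonide at 18 h at 8.63 ± 0.22 (SD, n = 4), all 15 pairs of neighbours overlapped. No RefSeq promoter window for TSC22D2 was used here.

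**Figure D5:**
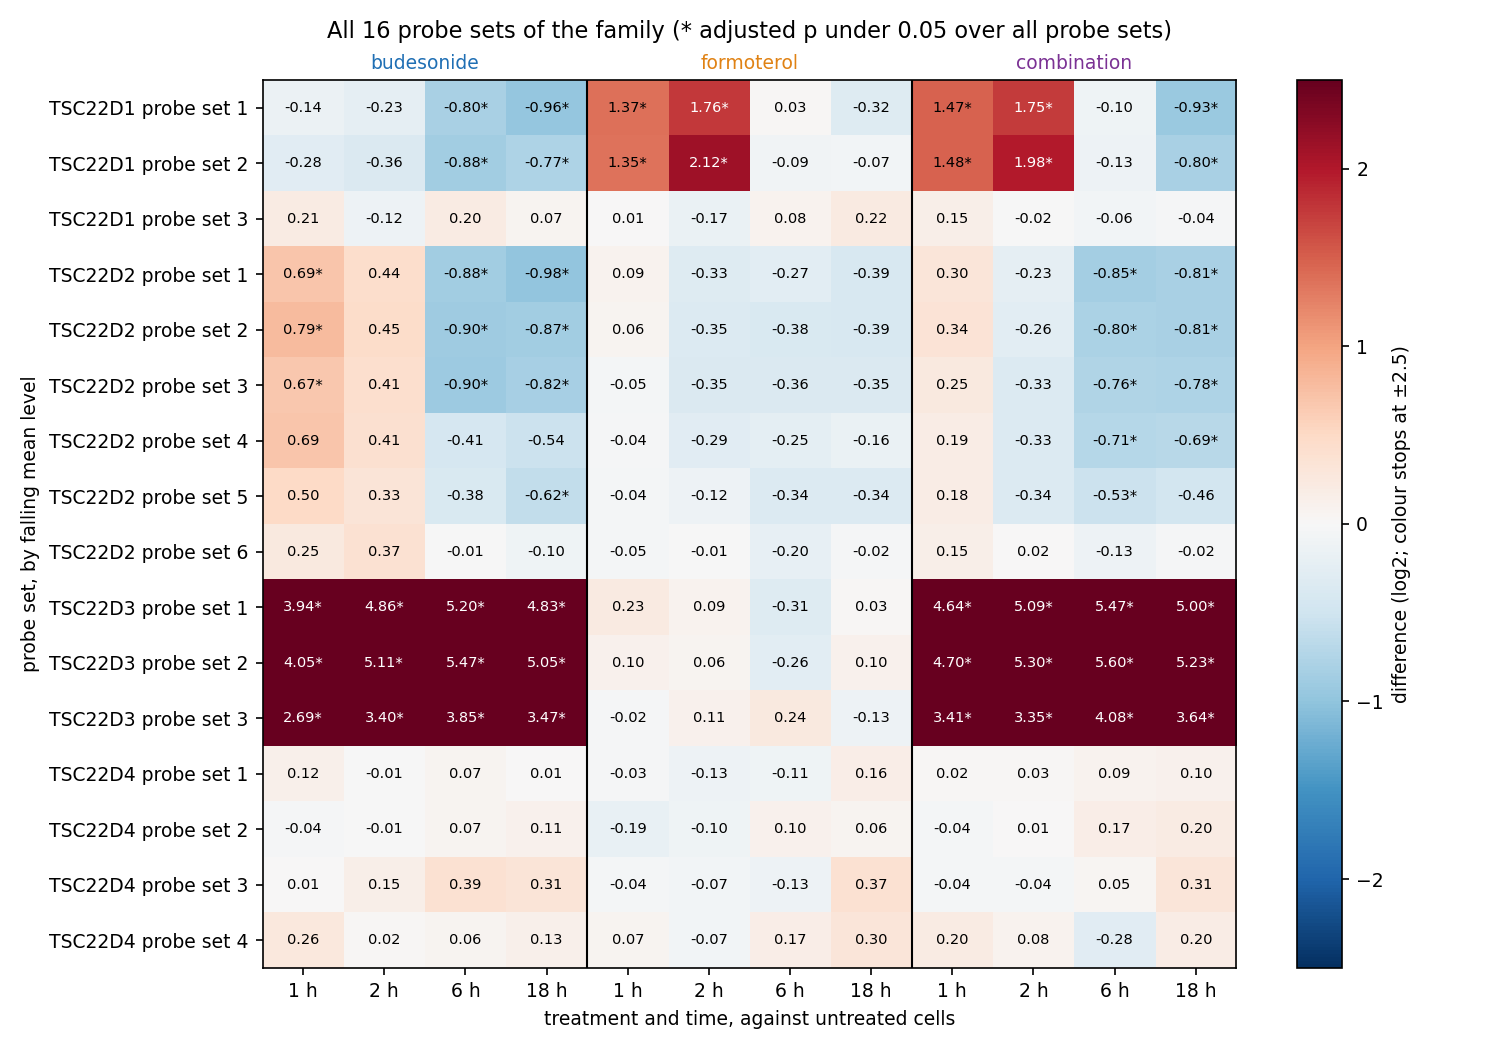
Differences from untreated cells (log2) of the 16 probe sets of the family, in rows by falling mean level within a gene, for 3 treatments and 4 times in columns; an asterisk marks an adjusted p under 0.05 over all probe sets and the colour stops at 2.5 in either direction. The 3 rows of TSC22D3 carry an asterisk in every budesonide and combination column, and the 4 rows of TSC22D4 carry none.

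TSC22D4 (Entrez Gene 81628) stayed between group means of 4.83 and 5.16 in all 16 groups, close to the median of all values. Single arrays ran from 4.55 to 5.45 with a median of 5.03, and all 15 pairs of neighbours in the order of levels overlapped. At 2 h all 4 arrays with both drugs lay above all 4 formoterol arrays, as 3.24% of genes did. The difference there was 0.17 (adjusted p = 0.863, limma). Of the 12 differences from untreated cells none passed the test, and the largest was 0.16 with formoterol at 18 h. Its brightest probe set had a mean of 5.04 and the other 3 had means of 3.19 to 4.46, below the median of all values. None of the 4 was called in any of the 12 comparisons, with differences from -0.28 to 0.39. Between budesonide and formoterol at 6 h 1 of the 4 was called higher, as 4.93% of all probe sets were. The differences of the 4 ran from -0.10 to 0.52 there.

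Partners of the long family members were called at 6 h alone. Of 8 genes for NRBP pseudokinases, WNK kinases and the kinases they act on, none was called at 1, 2 or 18 h with either drug or both by limma. At 6 h STK39 and OXSR1, the kinases that WNKs switch on, rose with budesonide by 0.43 and 0.37 and with both drugs by 0.42 and 0.30. Of all genes 6.12% were called higher with budesonide and 8.61% with both drugs at that time. NRBP1, NRBP2, WNK1, WNK2, WNK3 and WNK4 were not called in any of the 12 comparisons, and WNK3 lay below the lower quartile of all values in 13 of 16 groups. The median difference of the 8 with budesonide at 6 h was 0.06 beside 0.03 over all genes.

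The genes whose 16 group means ran most like those of a member were found among 1571 genes with a range of at least 1 and a group at or above the median. TSC22D3 ran most like IRS2, an insulin receptor substrate, with r = 0.98, then RGCC at 0.98, CCDC126 at 0.97, PDK4, a kinase that holds back pyruvate oxidation, at 0.95, and IGFBP1 at 0.94. TSC22D1 ran most like the T-box factor TBX3 at 0.98, then the lipid receptor S1PR1 at 0.95, GBX2 at 0.95, NR4A1 at 0.94 and the neurotrophin BDNF at 0.93. TSC22D2 had lower r, from the matrix protein CCN1 at 0.86 to EGFLAM, FGF5, NMT2 and FRMD4B at 0.85. By Spearman rank correlation CCN1 stood at 0.89 with TSC22D2 and IRS2 at 0.93 with TSC22D3. With TSC22D1, TBX3 stood at 0.89 and NR4A1 at 0.66. Between members r was -0.20 for TSC22D1 and TSC22D3, 0.30 for TSC22D1 and TSC22D2 and -0.30 for TSC22D2 and TSC22D3. These are descriptions over 16 group means that share times and controls, with no test.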

How the data were processed

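The deposited values are log2 levels per probe set that the authors made with RMA, per the submitters' processing notes, which give no version. The software settings, and whether all 64 arrays were normalized together, are not given in the sources used here. Joint normalization would hide a shift common to most genes. Precision is limited by the number of arrays, which have no read depth. The platform annotation gave 1 gene symbol for 44994 of the 49395 probe sets, more than 1 for 1832 and none for 2569, and the last groups entered no gene test. Each gene was represented by its probe set with the highest mean over 64 arrays, which gave 18132 genes.

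One model in limma 3.58.1 (R 4.3.3, with the data.table package, version 1.17.8) held a mean for each of 16 groups, with 48 residual degrees of freedom and an intensity trend. Its 43 contrasts compared treatments within a time, the interaction (the combination effect less both single effects), times among untreated cells, and each treatment's effect between times. Tests were two-sided, with Benjamini-Hochberg adjustment over all genes within a contrast, and were tested on simulated data. Probe sets were tested in a second fit over all of them. Promoter sequences are RefSeq's on GRCh38.p14, searched in Python 3.11.15, and figures were drawn with matplotlib 3.10.9.

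Genes named are the members, the members of the gene lists, and for each member with a call the 5 genes with the highest Pearson correlation over 16 group means. The members, lists and tests were chosen with earlier results of these data known. The lists were partners of the family, proteins reported to bind GILZ, drivers of TSC22D3, glucocorticoid receptor targets, genes induced by cyclic AMP, 4 marker lists and the controls ACTB and GAPDH, neither of which was called in the 12 comparisons with untreated cells.

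Arrays carry the numbers 1 to 4 in each group, and the labels state neither a meaning of the number nor separate cultures, so p-values measure the spread between these arrays. Same-numbered arrays deviated together, with every pair's correlation over 0.1, in 14 of the 28 contrasts within a time, among them all at 2 h and the combination against budesonide at 6 h, with mean correlations of 0.112 to 0.474 over the 28. In these the numbers pair the arrays, but the fit reported has no block. Other fits tried used a block for the replicate number (over all arrays or by time), median-centred arrays, a further quantile normalization, a filter on dim genes, a variance prior without trend, or another summary of a gene's probe sets (their mean, or the most variable one). Further fits took only the arrays being compared, or omitted single arrays or replicate numbers. Additivity of unlogged levels was computed from group means, with no test.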

Additional observations from a re-analysis of the deposited data

Results flagged for a closer look

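Several effects differed between times by a test of that difference. The effect of budesonide on TSC22D3 was larger at 2, 6 and 18 h than at 1 h, by 0.92, 1.26 and 0.90 on the log2 scale (adjusted p = 0.000133, 2.88e-09 and 8.3e-06, limma). The effect of both drugs on TSC22D3 was 0.83 larger at 6 h than at 1 h (adjusted p = 2.84e-05). It was smaller at 18 h than at 6 h, with a difference of -0.48 (adjusted p = 0.0307). That call was lost in 12 of 20 fits that left out 1 array or 1 replicate number, over which the value ran from -0.57 to -0.41. The effect of formoterol on TSC22D3 was -0.55 at 6 h relative to 1 h (adjusted p = 0.0322), and 11 of 20 such fits lost the call, with values from -0.67 to -0.42. With the compared arrays alone its adjusted p was 0.11, and none of the 3 probe sets was called for this effect over all probe sets, with values from -0.55 to 0.26.

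For TSC22D1 the effect of formoterol was lower at 6 and 18 h than at 1 h, by -1.34 and -1.69 (adjusted p = 3.68e-07 and 5.76e-10, limma). That of both drugs was lower by -1.57 and -2.40 at these times (adjusted p = 6.17e-10 and 1.92e-16) and by -0.83 between 6 and 18 h (adjusted p = 0.000797). That of budesonide was lower by -0.66 and -0.82 (adjusted p = 0.0137 and 0.000858). The first of these failed without replicate 4 of the untreated arrays at 1 h, at -0.57 with an adjusted p of 0.0587, without replicate 3 of the budesonide arrays at 6 h, at -0.52 with 0.0792, and without the arrays numbered 1, 2 or 3, at -0.65, -0.75 and -0.53 with 0.0598, 0.0592 and 0.209.

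With the mean of a gene's probe sets the TSC22D3 effects were 0.90 for budesonide at 2 h (adjusted p = 0.0569), -0.43 for both drugs between 6 and 18 h (0.296) and -0.21 for formoterol (0.928). With the probe set of largest variance they were 1.07 (0.0501), -0.38 (0.563) and -0.36 (0.873), so that none of these passed. That probe set of TSC22D1 gave -0.60 and -0.49 for budesonide at 6 and 18 h (0.308 and 0.413) and -0.67 for both drugs between 6 and 18 h (0.153). Repeated quantile normalization gave -0.42 for both drugs on TSC22D3 between 6 and 18 h (0.0712).

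For TSC22D2 the effect of budesonide was lower by -1.57 at 6 h and -1.68 at 18 h than at 1 h (adjusted p = 2.44e-06 and 3.51e-07, limma), and that of both drugs by -1.14 and -1.10 (adjusted p = 0.000383 and 0.000548). These kept their call in each of 20 fits that left out 1 array or 1 replicate number.

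Over the 16 groups and 4 genes, which make 64 sets of 4 readings, 7 sets held 1 array that stood apart from the other 3, and chance alone marks about 1 in 20 such sets in this way. TSC22D2 read 9.05 on replicate 1 of budesonide at 6 h, above the others at 8.48 to 8.55, and 8.83 on replicate 1 of the combination at 6 h, above 8.61 to 8.64. It read 9.30 on replicate 4 of the combination at 1 h, below 9.79 to 9.87. TSC22D3 read 6.77 on replicate 4 of untreated cells at 2 h, above 6.44 to 6.49, and 10.75 on replicate 2 of budesonide at 1 h, above 10.39 to 10.44. It read 11.42 on replicate 3 of the combination at 2 h, below 11.68 to 11.73. TSC22D4 read 4.81 on replicate 4 of formoterol at 2 h, below 5.03 to 5.06.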

How the results depend on the processing

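No difference of the 4 genes that passed the test, in the fit reported or in an alternative, changed direction under an alternative. Differences near 0 crossed it with 1 array or number left out, from -0.04 to 0.20 and -0.13 to 0.06 for TSC22D1 between both drugs and formoterol at 1 and 2 h, -0.06 to 0.11 for TSC22D1 with formoterol at 6 h, and -0.07 to 0.16 for TSC22D3 with formoterol at 18 h. Centring each array or repeating the quantile normalization moved the median of all genes by at most 0.02 and 0.01 in any comparison. The calls of TSC22D3 with budesonide and with both drugs, of TSC22D1 against untreated cells and of TSC22D2 at 6 and 18 h passed in every fit run. The meaning of a replicate number is not stated, 3 of 4 TSC22D4 probe sets lay below the median of all values, and 4 arrays a group limit what can be detected.

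With the replicate number as a block 4 more differences from untreated cells passed: TSC22D2 with budesonide at 2 h (0.44, adjusted p = 0.0016) and with formoterol at 2 h (-0.33, 0.0307) and 18 h (-0.39, 0.0148), and TSC22D3 with formoterol at 6 h (-0.31, 0.0197). With a block within each time the adjusted p was 0.000838, 0.0181, 0.00704 and 0.0133 for these same values, and TSC22D1 with formoterol at 18 h passed too (-0.32, 0.0356). Neither block changed another call against untreated cells. Both blocks also called the interactions of TSC22D1 at 6 h (0.67, 0.00605 and 0.00112) and of TSC22D2 at 18 h (0.57, 0.0281 and 0.0124). In these interactions, and with formoterol at 6 and 18 h, not every same-numbered pair correlated over 0.1. The numbers were thus not taken to pair those arrays. With formoterol the lowest and mean correlations were 0.079 and 0.253 at 6 h and -0.113 and 0.117 at 18 h. For the interaction they were -0.017 and 0.232 at 6 h and -0.136 and 0.188 at 18 h.

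The interaction of TSC22D3 at 6 h had an adjusted p of 0.0537 with no intensity trend (0.59), and of 1 with the mean of its probe sets (0.33) or the probe set of largest variance (0.40). On the linear scale it was 0.28, and that at 1 h was 0.70. With 1 array or replicate number left out it ran from 0.52 to 0.65. The rise of TSC22D2 with budesonide at 1 h ran from 0.57 to 0.85, and the difference of TSC22D3 with formoterol at 6 h from -0.37 to -0.28.

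Counts of genes called moved by over 1.5 times in some fits. Against untreated cells, a block within each time called 312 genes in place of 181 with budesonide at 1 h, 1379 in place of 715 at 2 h and 4081 in place of 2583 at 6 h. With formoterol it called 557, 1637, 1910 and 965 in place of 243, 834, 873 and 201 at the 4 times, and with both drugs 966 and 2794 in place of 500 and 1721 at 1 and 2 h. One block over all times called 1360 and 527 with formoterol at 6 and 18 h, and 272 interactions in place of 131 at 6 h. The probe set of largest variance gave 1717 and 2209 with budesonide at 6 and 18 h, the latter in place of 3325, and 549, 557 and 109 with formoterol at 2, 6 and 18 h. The compared arrays alone gave 436 with budesonide and 470 with formoterol at 2 h and 77 with formoterol at 18 h. Without the arrays numbered 2 the counts were 394 with budesonide at 2 h, 159, 483, 501 and 58 with formoterol at the 4 times, and 315 and 1044 with both drugs at 1 and 2 h. The combination against budesonide then gave 176, 520 and 707 in place of 267, 794 and 1218 at 1, 2 and 6 h, and against formoterol 494 in place of 753 at 2 h. Formoterol at 18 h gave 109 without the arrays numbered 4, 348, 117 and 93 without replicates 1, 2 and 4 of its own arrays, and 121 without untreated replicate 2. Interactions at 6 h were 84, 68 and 87 without numbers 1, 2 and 3. The change of the budesonide effect from 1 to 2 h was called in 30, 32, 35 and 40 genes without numbers 1 to 4, in place of 62, from 1 to 6 h in 746 without number 2, in place of 1207, and from 1 to 18 h in 1173 without number 1, in place of 1814. That of formoterol was called in 254 and 206 without numbers 1 and 2, in place of 424, from 1 to 6 h, and in 102 without number 2, in place of 203, from 1 to 18 h. That of both drugs from 6 to 18 h was called in 1190 and 1170 without numbers 1 and 2, in place of 1804. These counts do not say which genes were called.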

Other observations

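Some markers used to check the cells changed with treatment late, beside the falls of TSC22D1 and TSC22D2. KRT8 and KRT18, keratins of simple epithelia, fell with budesonide at 18 h by 1.15 and 0.86 (adjusted p = 1.61e-08 and 5.05e-10, limma) and with both drugs by 1.31 and 1.10. KRT7, another such keratin, rose with budesonide by 1.21 at 6 h and with both drugs by 2.12 at 6 h and 0.82 at 18 h. COL1A1, a collagen chain, fell with budesonide at 18 h by 0.58, while PDGFRB, a growth factor receptor, rose by 0.60. Their part in the results of the TSC22 family was not tested.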
